A study of Mus musculus with 200 samples.

Results

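The beta-globin locus was followed in single whole mouse embryos from crosses of the inbred strain C57BL6/J (B6) with Castaneus (Cast), the wild-derived strain CAST/EiJ. Its genes appear in the tables under 5 symbols, *Hbb-bh1*, *Hbb-y*, *Hbb-b1*, *Hbb-b2* and *Beta-s*, out of 22033 genes. These were chosen by symbol, and since *Hbb-b1* and *Hbb-b2* held the same reads they amounted to 4 distinct measurements. Whole embryos at E11.5, freed of extra-embryonic tissue, were profiled with 3SEQ, an RNA sequencing method in which reads come from the 3′ ends of transcripts. The 16 F1 embryos came from 4 litters, and the mother is named first in each cross. Litter 1 (4 embryos) and litter 2 (4 embryos) were CastxB6, with 41 to 43 and 46 to 48 somites, and litter 5 (5 embryos) and litter 3 (3 embryos) were B6xCast, with 48 to 50 and 58 to 63 somites. For 3 of these embryos, 1 each in litters 1, 2 and 3, no somite number was used here. Each F1 embryo was sequenced in 2 runs, whose reads the tables hold as 1 sum. The N2 embryos with a deposited genotype numbered 154, of which 89 had a B6 mother and an F1 father and 65 an F1 mother and a B6 father. The labels give a somite number for 147 of them, and these ranged from 42 to 57. Every F1 parent of an N2 embryo came from a B6 female and a Cast male, so an N2 embryo carried either 1 Cast chromosome at the locus or none. Litters 1, 3 and 5 shared the same pair of sequencing runs and litter 2 had another pair, so that run cannot be told apart from stage or cross in a contrast with litter 2. With 1 litter for each cross and stage, litter and stage cannot be told apart in any F1 contrast.

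Beta-globin and alpha-globin chains pair to form hemoglobin. In the mouse *Hbb-y* and *Hbb-bh1* are the embryonic beta-type genes, used by the primitive red cells that arise in the yolk sac, and the adult genes at the other end of the cluster are used by the definitive red cells that form in the fetal liver. Their embryonic alpha-type partner is *Hba-x*, and the adult one is encoded by *Hba-a1* and *Hba-a2*. B6 mice carry the *Hbb* single haplotype, in which both adult genes encode the same chain.

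The positions of the genes on mm9 were read from the GENCODE annotation, all on the minus strand of chromosome 7, each with 3 coding exons and a coding length of 441 bases. *Hbb-y* lay at chr7:111000259-111001754 and *Hbb-bh1* at chr7:110990150-110991678. *Beta-s* is the RefSeq gene *Hbb-bs* by its synonym, and its RefSeq promoter was found once on mm9, at the locus that GENCODE names *Hbb-b1*, chr7:110975048-110976610. The entries *Hbb-b1* and *Hbb-b2* were taken, by exclusion, as the remaining adult locus, which GENCODE names *Hbb-b2* and RefSeq *Hbb-bt*, chr7:110961038-110962510, as the tables give only a chromosome and a strand. The adult genes are therefore named below as the tables name them, *Beta-s* and *Hbb-b2*. The last 60 coding bases before the stop codon are shown because they lie near the transcript end, where 3SEQ reads come from, and differ unequally between the genes. Capitals mark bases that differ from the *Hbb-b2* entry.
Hbb-y, chr7:111000391-111000450, minus strand: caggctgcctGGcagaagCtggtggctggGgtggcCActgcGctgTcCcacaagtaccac
Hbb-bh1, chr7:110990269-110990328, minus strand: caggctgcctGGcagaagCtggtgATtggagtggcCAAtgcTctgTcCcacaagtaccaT
Beta-s, chr7:110975182-110975241, minus strand: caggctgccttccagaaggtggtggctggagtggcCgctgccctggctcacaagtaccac
Hbb-b2, chr7:110961173-110961232, minus strand: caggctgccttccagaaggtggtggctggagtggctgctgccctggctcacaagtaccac
In these stretches *Hbb-y* differed from *Hbb-b2* at 9 bases, *Hbb-bh1* at 12 and *Beta-s* at 1. Over the 441 coding bases the adult genes differed at 1 base (99.8% identity), the embryonic genes from each other at 104 (76.4%), and an adult from an embryonic gene at 113 to 116.

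These sequences bear on which reads were kept, because the authors discarded a read whose second-best alignment lay within 3 edits of the best. Of all 76-base stretches of the annotated transcript, the length of the trimmed F1 reads (some F1 runs were slightly longer), 58.7% in *Beta-s* and 65.8% in *Hbb-b2* lay within 3 edits of the other adult gene. In the last 300 bases of the transcript these shares were 46.2% and 45.8%. At the longer reads of the N2 embryos they were 39.5% and 39%. No such stretch existed in *Hbb-y* or *Hbb-bh1*, whose closest stretches of 76 bases were 8 and 6 edits from another beta-globin gene. The stretches came from mm9 and were compared only with other beta-globin transcripts, and the reads lost were not counted. The share of reads kept may thus differ between adult and embryonic genes and between F1 and N2. Shares below are shares of kept reads rather than of transcripts.

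The 120 bases before each transcript start are shown because the embryonic and adult genes differed in direction in F1. Within each F1 cross the embryonic genes were lower and the adult genes higher in the more advanced litter. Whether the marked letters bear on this was not tested. Capitals mark the CACCC box, the letters CCAAT of a CAAT box and the letters ATAAA of a TATA-like box, searched on both strands, so that capitals also mark the reverse complement of each. In *Hbb-b2* a CCAAT and its reverse complement stand side by side. Sequences are from mm9, with starts from RefSeq, or from GENCODE for *Hbb-bh1*.
Hbb-y, chr7:111001722-111001841, minus strand: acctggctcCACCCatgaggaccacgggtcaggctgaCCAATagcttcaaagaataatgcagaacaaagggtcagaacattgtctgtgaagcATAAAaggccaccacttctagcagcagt
Hbb-bh1, chr7:110991679-110991798, minus strand: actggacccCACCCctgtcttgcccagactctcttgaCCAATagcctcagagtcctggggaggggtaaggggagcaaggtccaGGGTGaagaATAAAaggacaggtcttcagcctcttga
Beta-s, chr7:110976443-110976562, minus strand: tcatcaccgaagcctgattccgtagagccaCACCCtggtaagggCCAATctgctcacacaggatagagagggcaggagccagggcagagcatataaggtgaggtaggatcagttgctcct
Hbb-b2, chr7:110962438-110962557, minus strand: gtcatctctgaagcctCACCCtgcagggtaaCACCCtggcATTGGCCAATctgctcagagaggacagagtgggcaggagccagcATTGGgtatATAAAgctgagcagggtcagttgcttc
The 2 embryonic windows held CACCC at -111 to -107 and CCAAT at -83 to -79, counted from the transcript start, and ATAAA at -28 to -24. *Beta-s* held CACCC at -90 to -86 and CCAAT at -76 to -72, without ATAAA in these letters, and *Hbb-b2* held CACCC at both -104 to -100 and -89 to -85. AGATAA, searched in the same way, was in none of the 4 windows. Of 32851 RefSeq promoter windows of the same length, 31.7% held CACCC, 21.3% CCAAT, 20.2% ATAAA and 4.36% AGATAA.

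*Hbb-b1* and *Hbb-b2* had the same number of reads in 15 of 16 F1 embryos and in 148 of 154 N2 embryos, with a largest difference of 2 reads, and the same allele votes in every embryo. They are given once, as *Hbb-b2*, and were counted once in every sum. Of 4548 genes with a mean of at least 1000 reads per F1 embryo, 6 had a partner with identical reads, and *Hba-a1* and *Hba-a2* were among them.

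The F1 embryos had 15703888 to 38234229 reads on genes and the N2 embryos 245220 to 5370322. The RNA carried the defining transcripts of red cells. Mean levels in N2 were 382 reads per 1000000 reads on genes (RPM) for *Slc4a1*, the band 3 anion exchanger, and 353 for *Alas2*, the first enzyme of erythroid heme synthesis. The summed level of 7 placental markers was at most 0.869 RPM in F1 and at most 22.9 RPM in N2 embryos, with 3 to 5 of the 7 at 0 in every embryo of a group. The 6 hepatocyte and visceral endoderm markers rose with stage and are given beside the results below.

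Across the F1 litters the embryonic genes fell and the adult genes rose, in both crosses. *Hbb-bh1* measured 11289 to 18322 RPM in litter 1, 4376 to 6109 in litter 2, 3247 to 5519 in litter 5 and 450 to 844 in litter 3. Litters 2 and 5 overlapped, and litters 1 and 3 stood apart above and below them. *Hbb-y* was the most abundant beta-globin entry in each embryo, with 50323 to 65336 RPM in litter 1, 29976 to 45696 in litter 2, 44641 to 59045 in litter 5 and 22869 to 30023 in litter 3. Unlike *Hbb-bh1*, it was higher in litter 5 than in the less advanced litter 2 by mean, although the ranges met.

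*Beta-s* measured 528, 467, 554 and 535 RPM in the 4 embryos of litter 1 and 1557, 1742, 2229 and 2639 in those of litter 2. It measured 2303, 3348, 4920, 2440 and 1353 RPM in litter 5 and 13398, 14555 and 13242 in litter 3. *Hbb-b2* measured 270 to 380 RPM in litter 1, 697 to 1156 in litter 2, 863 to 2264 in litter 5 and 4830 to 5479 in litter 3. Within each cross the more advanced litter lay wholly above the other for both adult genes, while litters 2 and 5 overlapped. Embryo 5-5 had the highest adult and the lowest *Hbb-bh1* level of litter 5.

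**Figure D1:**
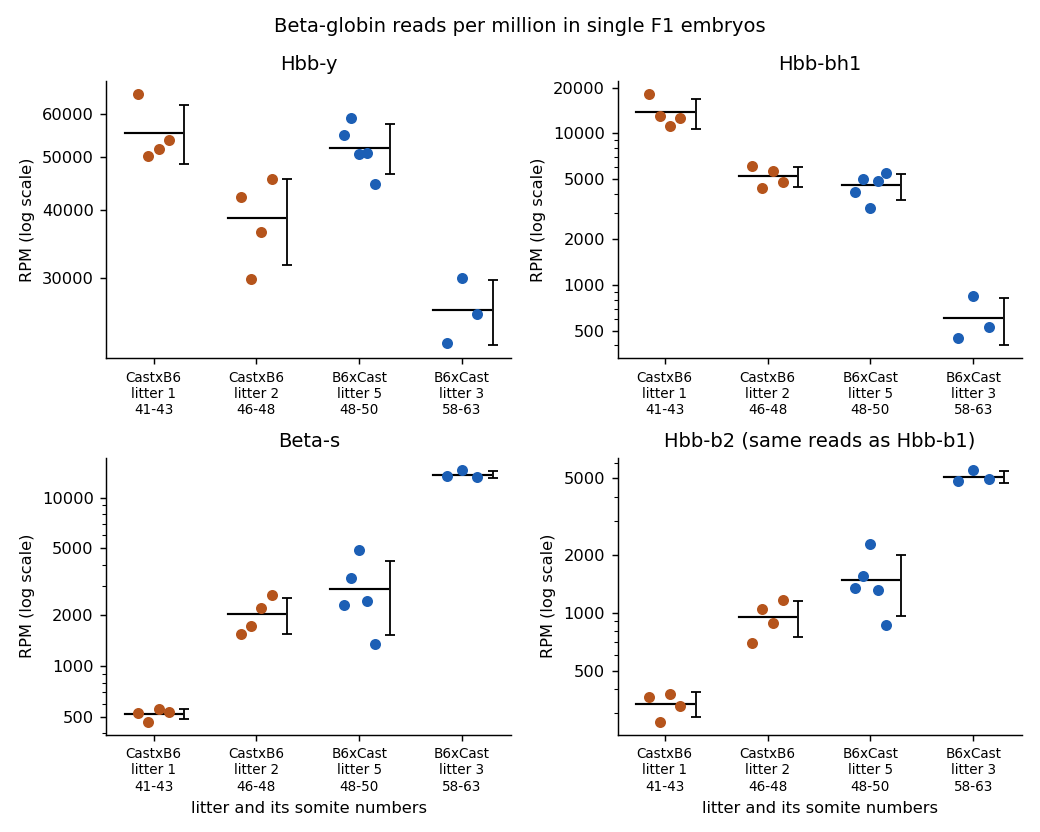
RPM (log axis) of the 4 distinct beta-globin entries in each F1 embryo (points), with the litter mean (line) and SD (bar), litters ordered by somite number (orange, CastxB6; blue, B6xCast). *Hbb-bh1* fell from 11289 to 18322 RPM in litter 1 to 450 to 844 RPM in litter 3, while *Beta-s* rose from 467 to 554 RPM to 13242 to 14555 RPM.

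Between litters 5 and 3 of the B6xCast cross, all 4 distinct entries changed by edgeR's quasi-likelihood test at an adjusted p under 0.05, where 15% of the 15271 genes tested were called. *Hbb-bh1* was 8.47-fold lower in litter 3 (log2 difference -3.08, SE 0.27, adjusted p = 1.78e-05) and *Hbb-y* 2.24-fold lower (log2 difference -1.16, SE 0.18, adjusted p = 0.00124). *Beta-s* was 4.24-fold higher (log2 difference 2.08, SE 0.28, adjusted p = 5.62e-04) and *Hbb-b2* 3.06-fold higher (log2 difference 1.62, SE 0.23, adjusted p = 6.19e-04). *Hba-x* fell by 2.43 on the log2 scale (adjusted p = 1.76e-05) and *Hba-a1* rose by 1.46 (adjusted p = 0.0148). *Hbq1a* (1.38, adjusted p = 0.143) and *Hbq1b* (0.21, adjusted p = 0.543), alpha-type genes of low level, did not pass. In whole embryos, fewer cells of a type and less RNA per cell cannot be told apart.

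The younger pair, litters 1 and 2 of the CastxB6 cross, gave the same directions. All 4 entries changed, where 29.1% of genes were called. *Hbb-bh1* was 2.89-fold lower in litter 2 (log2 difference -1.53, SE 0.23, edgeR adjusted p = 3.56e-04) and *Hbb-y* 1.56-fold lower (log2 difference -0.64, SE 0.17, adjusted p = 0.0110). *Beta-s* was 3.61-fold higher (log2 difference 1.85, SE 0.29, adjusted p = 4.39e-04) and *Hbb-b2* 2.57-fold higher (log2 difference 1.36, SE 0.23, adjusted p = 6.28e-04). *Hba-x* fell by 1.32 on the log2 scale (adjusted p = 1.18e-04), while *Hba-a1* had a difference of -0.59 that did not pass (adjusted p = 0.244).

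Litters 2 and 5 are nearest in stage but differ in cross, and 11.8% of genes were called between them. *Hbb-b2* was 1.62-fold higher in litter 5 (log2 difference 0.69, SE 0.21, edgeR adjusted p = 0.0469), a call that was lost in 11 of 16 fits without 1 embryo. Without embryo 5-5 the difference was 0.48 (adjusted p = 0.123), without 2-2 it was 0.58 (adjusted p = 0.133), and with library sizes alone it was 0.64 (adjusted p = 0.0641). The differences of *Hbb-y* (0.47, adjusted p = 0.0693), *Beta-s* (0.54, adjusted p = 0.209) and *Hbb-bh1* (-0.15, adjusted p = 0.700) did not pass. Cross, litter, sequencing run and the remaining stage difference cannot be told apart here. Litters 2 and 5 each serve in 2 of these 3 contrasts, which are therefore not independent of one another.

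As shares of the kept beta-globin reads, *Hbb-y* was the largest part in each embryo. It took 77.3% to 80.9% in litter 1, 80.6% to 84.2% in litter 2, 82.9% to 87.6% in litter 5 and 55.04% to 58.98% in litter 3, so that its share was highest at 48 to 50 somites while its level was not. *Hbb-bh1* took 17.6% to 21.7%, 8.85% to 12.6%, 5.32% to 10.5% and 1.08% to 1.66% in the same order. The adult genes together took 1.06% to 1.46%, 4.45% to 7.49%, 4.23% to 11.8% and 39.4% to 43.9%. In litter 3 *Beta-s* alone took 28.6% to 32.2% and *Hbb-b2* 10.8% to 11.6%. The ratio of *Hbb-bh1* to *Hbb-y* reads was 0.248 ± 0.0275 in litter 1 (SD, n = 4), 0.138 ± 0.0224 in litter 2 (n = 4), 0.0885 ± 0.0227 in litter 5 (n = 5) and 0.0228 ± 0.00462 in litter 3 (n = 3), so the embryonic genes did not fall in proportion to each other. The ratio of *Beta-s* to *Hbb-b2* reads was 1.57 ± 0.140, 2.18 ± 0.354, 1.89 ± 0.267 and 2.71 ± 0.0597.

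Beta-globin and alpha-globin reads did not keep a fixed ratio. Summed beta-globin reads (*Hbb-b1* left out) were 70023 ± 9803 RPM in litter 1 (SD, n = 4), 46849 ± 7462 in litter 2 (n = 4), 60906 ± 5994 in litter 5 (n = 5) and 45650 ± 4781 in litter 3 (n = 3). Summed alpha-globin reads (*Hba-a2* left out) were 38455 ± 7152, 17001 ± 2183, 21832 ± 2635 and 4940 ± 1106 RPM. The ratio of the sums was 1.72 to 1.96 in litter 1, 1.94 to 3.86 in litter 2, 2.47 to 3.15 in litter 5 and 8.48 to 11.2 in litter 3, where it lay above each of the other 13 embryos. *Hba-x* made up 89.5% to 93.2% of alpha-globin reads in litter 3 and at least 98.9% in the others. *Hba-a1* and *Hba-a2*, which are near-identical copies, had 42.2 to 404 RPM, and the share of their reads lost to the filter on second alignments was not measured, so the ratio compares kept reads.

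Of 28 other erythroid genes, 14 rose and 0 fell between litters 5 and 3 (edgeR; median log2 difference 0.52, against 0.05 over all genes). They included *Uros* (0.68, adjusted p = 0.00388), a heme synthesis enzyme, *Ermap* (0.90, adjusted p = 0.00566) and *Tspo2* (1.31, adjusted p = 0.00568). Between litters 1 and 2, 6 of 28 rose and 3 fell (median -0.04, against -0.01 over all genes), led by *Tspo2* (2.29, adjusted p = 1.04e-04). Of 21 regulators linked to globin switching, 2 rose and 2 fell in the older pair, where 15% of all genes were called, and 3 rose and 4 fell in the younger, where 29.1% were, so that the regulators, like the erythroid genes in the younger pair, were called at a share near that of all genes. *Lin28a*, an RNA-binding protein of early development, fell in both, with log2 differences of -1.65 (adjusted p = 1.76e-04) and -2.19 (adjusted p = 4.97e-06). Between litters 2 and 5, where 11.8% of all genes were called, 8 of 28 erythroid genes rose and 1 fell. Of the 21 regulators 2 rose and 1 fell there, which is near the share of all genes.

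Markers of other cell types were read against the same 29.1% of all genes called in the younger and 15% in the older pair. All 6 hepatocyte and visceral endoderm markers rose in both pairs, with summed levels of 472 to 678 RPM in litter 1, 1079 to 1190 in litter 2, 971 to 1488 in litter 5 and 2423 to 2962 in litter 3. Of 7 neutrophil markers 5 rose between litters 1 and 2 and 0 between litters 5 and 3, with summed levels of 61.6 to 258, 358 to 526, 366 to 756 and 708 to 778 RPM. Of 7 macrophage markers tested 3 rose and 1 fell in the younger pair, and 1 rose in the older. Of 5 megakaryocyte markers 3 rose in the younger pair and 1 fell in the older, and both counts of the older pair were near the share of all genes. Summed macrophage markers ranged from 133 to 294 RPM and megakaryocyte markers from 290 to 647 RPM over the 16 embryos. The part of these cell types in the globin changes was not tested.

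The parental alleles of each gene were compared through the allele votes, in which each read that covers SNPs gives 1 vote divided over them, and the B6 share of votes is the B6 allele fraction (BAF). The entries differed in how many reads carried a vote. In F1 embryos *Hbb-b2* had 69.6 to 96.6 votes per 100 reads, *Beta-s* 23.9 to 65.5, *Hbb-y* 24.6 to 40.2 and *Hbb-bh1* 0.0880 to 5.12. Those of *Hbb-bh1* averaged 4.32 in litter 1, 0.361 in litter 2, 0.850 in litter 5 and 1.74 in litter 3, so its allele fractions were not read from the same share of its transcripts in each litter. *Hbb-bh1* thus rested on 68 to 27428 votes per embryo, the fewest in litter 3, and *Hbb-y* on 186040 or more.

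Averaged over litters, all 4 entries departed from equal votes (limma, adjusted p under 0.05), as did 64.7% of the 5713 genes tested. The mean log2 ratio of B6 to Cast votes was 1.17 for *Hbb-bh1* (SE 0.08, adjusted p = 1.92e-09), 0.03 for *Hbb-y* (SE 0.01, adjusted p = 0.0108), -0.97 for *Hbb-b2* (SE 0.05, adjusted p = 4.02e-10) and -1.16 for *Beta-s* (SE 0.05, adjusted p = 6.85e-12). In the F1 votes the embryonic *Hbb-bh1* therefore leaned to B6 and both adult genes to Cast, while *Hbb-y* had 1.02 times as many B6 as Cast votes. For *Hbb-b2* the lean to Cast was not shared by the N2 heterozygotes, whose mean BAF was 0.533.

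The BAF of *Beta-s* was lowest in litter 1, with 0.136, 0.169, 0.164 and 0.180 in its 4 embryos. It was 0.295, 0.294, 0.298 and 0.312 in litter 2, 0.353, 0.361, 0.428, 0.351 and 0.300 in litter 5, and 0.478, 0.465 and 0.460 in litter 3. No embryo of litter 2 overlapped litter 1 and none of litter 3 overlapped litter 5, and every embryo stayed under equality. Such separation was not counted over all genes, and limma's test between litters 5 and 3, given below, did not pass. The BAF of *Hbb-b2* was 0.360 to 0.483 in litter 1 and 0.281 to 0.392 in litter 2. It was 0.314 to 0.342 in litter 5 and 0.285 to 0.312 in litter 3. Litters 1, 3 and 5 stood apart from each other, 3 and 5 only narrowly, and litter 2 overlapped each of them. The BAF of *Hbb-y* stayed between 0.491 and 0.523 in all 16 embryos. That of *Hbb-bh1* was 0.566 to 0.592, 0.580 to 0.782, 0.621 to 0.678 and 0.783 to 0.853.

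Between litters 1 and 2 the log2 ratio of *Beta-s* moved toward B6 by 1.15 (SE 0.13, limma adjusted p = 2.16e-04), where 1.77% of genes were called. *Hbb-b2* (-0.44, adjusted p = 0.198), *Hbb-bh1* (0.60, adjusted p = 0.210) and *Hbb-y* (0.01, adjusted p = 0.955) did not pass. Between litters 5 and 3 limma called 0% of genes, with 366 of 5713 at an unadjusted p under 0.05. There *Hbb-bh1* differed by 1.27 (SE 0.22, adjusted p = 0.101) and *Beta-s* by 0.66 (SE 0.13, adjusted p = 0.250), and neither passed. *Hbb-bh1* was called without embryo 2-3 (adjusted p = 0.00293) or 2-6 (adjusted p = 0.0262), and *Beta-s* without 5-5 (adjusted p = 0.0268). Between litters 2 and 5 no beta-globin entry was called, where 1.66% of genes were. *Beta-s* differed by 0.38 (adjusted p = 0.135) and *Hbb-y* by 0.10 (adjusted p = 0.10).

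The votes of each allele were then followed on their own. For *Beta-s* the B6 votes, scaled to library size as for RPM, went from 46.9 ± 13.2 in litter 1 to 203 ± 78.8 in litter 2 (SD, n = 4 each) and from 443 ± 290 in litter 5 (n = 5) to 2923 ± 292 in litter 3 (n = 3). Its Cast votes went from 239 ± 49.1 to 470 ± 164 and from 730 ± 328 to 3321 ± 295. These are ratios of the means of 4.33 and 6.59 for B6 against 1.97 and 4.55 for Cast. The Cast votes of litters 1 and 2 overlapped, the B6 votes did not, and neither allele overlapped between litters 5 and 3. The difference between the alleles passed limma's test, given above, in the younger pair and did not pass it in the older. For *Hbb-b2* the ratios were 1.97 and 3.12 for B6 and 2.73 and 3.60 for Cast, and the difference between alleles passed in neither pair (log2 -0.44, limma adjusted p = 0.198, and -0.21, adjusted p = 0.899). For *Hbb-y* the ratios of the alleles were 0.484 and 0.483 in the younger pair and 0.546 and 0.578 in the older.

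In the N2 embryos the adult genes rose with somite number and *Hbb-bh1* fell. With lane in the model, *Beta-s* rose by 26.1% per somite (log2 slope 0.33, SE 0.04, edgeR adjusted p = 7.82e-11) and *Hbb-b2* by 15.6% (log2 slope 0.21, SE 0.03, adjusted p = 2.49e-10), where 10% of the 10040 genes tested were called. *Hbb-bh1* fell by 8.18% per somite (log2 slope -0.12, SE 0.03, adjusted p = 6.94e-04) and *Hba-x* by 5.71% (log2 slope -0.08, SE 0.02, adjusted p = 0.00681). *Hbb-y* had a slope of -0.01 (SE 0.02, adjusted p = 0.776). Among embryos of F1 mothers alone none of the 4 entries was called, with slopes of 0.17 for *Beta-s* (adjusted p = 0.242), 0.09 for *Hbb-b2* (adjusted p = 0.318) and -0.16 for *Hbb-bh1* (adjusted p = 0.0824). Among embryos of B6 mothers the same slopes were 0.41, 0.25 and -0.11 and all passed. *Hbb-bh1* also missed the threshold over litter means (-0.16, limma adjusted p = 0.139).

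*Hbb-y* ranged from 21023 to 142857 RPM over N2 embryos (median 52930), *Hbb-bh1* from 563 to 29427 (median 4493), *Hbb-b2* from 592 to 10679 (median 2925) and *Beta-s* from 144 to 17564 (median 2935). The summed beta-globin level held no overall trend with somite number. Its log2 had a Spearman's rho of 0.0400 (permutation p = 0.629, n = 147) and a Pearson's r of 0.0757 (p = 0.361), or 0.0560 without the 2 embryos whose somite numbers lay farthest from the median. The relation had opposite signs by mother, with rho of 0.426 among 85 embryos of B6 mothers and -0.495 among 62 of F1 mothers (permutation adjusted p = 7.22e-05 and 5.57e-05). Centred within lane, rho was 0.0213. Mother and lane nearly coincided and cannot be told apart.

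*Hba-x* made up 99.4% to 99.98% of alpha-globin reads in these 147 embryos, so the total of kept alpha-globin reads was almost wholly this embryonic gene. The share of *Hba-a1* and *Hba-a2* reads lost to the filter on second alignments was not measured in N2 either. The alpha-globin total and its ratios below therefore describe kept reads and not all alpha-globin transcripts. *Hba-a1* had a log2 slope of 0.09 per somite that did not pass (edgeR adjusted p = 0.0963). The alpha-globin total fell with somite number, with rho = -0.350 and r = -0.361 (permutation p = 3.00e-05 and 2.00e-05, adjusted 3.25e-05 and 2.17e-05 over 13 relations of this family), and r = -0.342 without the farthest 2 embryos. The ratio of kept beta-globin to kept alpha-globin reads therefore rose with somite number. Its mean was 3.11 ± 0.991 in embryos with at most 45 somites (SD, n = 21), 4.24 ± 1.29 with 46 to 49 (n = 58), 5.83 ± 4.04 with 50 to 52 (n = 54) and 7.53 ± 4.09 with 53 or more (n = 14). On the log2 scale rho was 0.468 and r 0.490 (permutation p = 1e-05, the smallest possible, adjusted 1.30e-05), r was 0.457 without the farthest 2 embryos, and rho was 0.465 centred within lane. Within mothers rho was 0.681 for B6 and 0.237 for F1 mothers, the latter with an adjusted p of 0.0692. Litter means gave rho = 0.603 over 29 litters (permutation adjusted p = 0.00231).

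Compared with the alpha-globin total itself, the beta-globin total was higher in embryos with more alpha-globin but rose less than in proportion. Over 154 embryos the log2 totals had rho = 0.554 and r = 0.561, and the log2 ratio of beta to alpha had rho = -0.656 and r = -0.669 with the alpha total (permutation p = 1e-05 for each, the smallest possible). Without the farthest 2 embryos r was 0.565 and -0.659. The 2 totals share a library and its depth, and the ratio contains the alpha total, so the size of the second relation is in part set by its construction.

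The makeup of the beta-globin reads followed the alpha total as well. The adult share of beta-globin reads fell with the alpha total (rho = -0.506, r = -0.529, and r = -0.537 without the farthest 2 embryos) and the ratio of *Hbb-bh1* to *Hbb-y* rose with it (rho = 0.519, r = 0.509, and r = 0.519 without them), with a permutation p of 1e-05 for each. The share of *Hba-x* among alpha reads rose with the alpha total it is part of (rho = 0.486, r = 0.569, and r = 0.546 without the farthest 2, permutation p = 1e-05). Centred within lane these values of rho were -0.450, 0.275 and 0.437. Embryos with more alpha-globin reads, nearly all of them from the embryonic *Hba-x*, thus had a smaller adult share of beta-globin reads. The ratio of *Beta-s* to *Hbb-b2* reads had rho = -0.390 and r = -0.385 (r = -0.377 without the farthest 2, permutation p = 1e-05).

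With somite number the adult share of beta-globin reads had the closest of the 13 relations by rho, though not by r (rho = 0.707, r = 0.654, and r = 0.631 without the farthest 2 embryos, permutation p = 1e-05). It rose by 1.62 percentage points per somite (SE 0.16). Split by mother, rho was 0.763 (B6) and 0.615 (F1), and centred within lane it was 0.647. Means were 4.97% ± 1.85 up to 45 somites, 7.03% ± 3.10 at 46 to 49, 14.0% ± 7.70 at 50 to 52 and 19.99% ± 8.61 from 53 on, and single embryos reached 41.6%. The ratio of *Hbb-bh1* to *Hbb-y* reads fell (rho = -0.483, r = -0.460, and r = -0.448 without the farthest 2) and that of *Beta-s* to *Hbb-b2* reads rose (rho = 0.391, r = 0.431, and r = 0.397), with permutation p = 1e-05 for each. The 2 embryonic genes thus parted in N2 as in F1 embryos, and so did the adult genes.

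**Figure D2:**
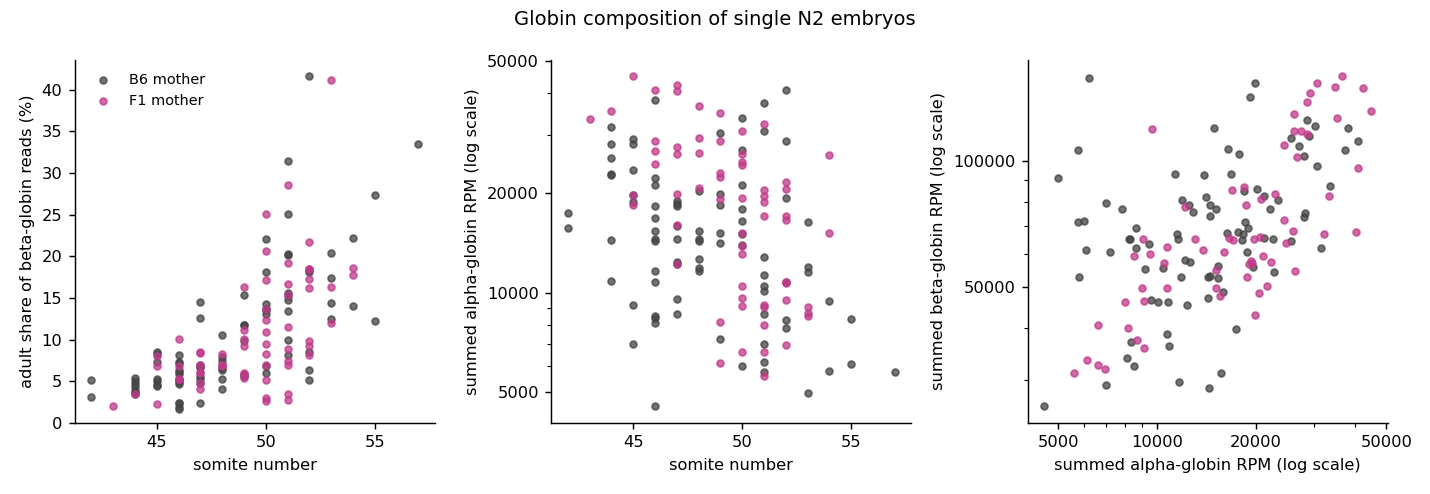
Single N2 embryos by mother (grey, B6; magenta, F1): the adult share of beta-globin reads in % (left) and the summed alpha-globin RPM on a log axis (middle) against somite number, and summed beta-globin against summed alpha-globin RPM, both on log axes (right). The adult share rose with somite number (rho = 0.707), the total of kept alpha-globin reads, nearly all *Hba-x*, fell (rho = -0.350), and the totals rose together (rho = 0.554).

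Lists of other genes were read against the 10% of all genes called with somite number in N2. Of 26 erythroid genes tested 14 rose and 1 fell (edgeR; median log2 slope 0.07 per somite, against 0.00 over all genes), led by *Tspo2* (0.25, adjusted p = 2.30e-12), *Cldn13* (0.16, adjusted p = 5.20e-07) and *Kel* (0.14, adjusted p = 4.64e-05). Of 18 regulators 4 rose and 2 fell. Those with the smallest p by edgeR were *Lin28a* (-0.19, adjusted p = 4.47e-07), *Chd4* (-0.04, adjusted p = 3.54e-04) and *Klf1*, an erythroid factor (0.08, adjusted p = 3.58e-04). All 5 hepatocyte and visceral endoderm markers tested rose, with summed levels of 146 to 1088 RPM up to 45 somites and 386 to 1823 RPM from 53 on. Of 6 neutrophil markers 5 rose, of 6 macrophage markers 3 rose, and of 4 megakaryocyte markers 0 were called. Their part in the globin slopes was not tested.

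At the locus 64 N2 embryos were B6/Cast and 90 were B6/B6, and each entry had the same counts. All 64 heterozygous embryos had at least 20 votes at *Hbb-y*, *Hbb-b2* and *Beta-s*, and 26 did at *Hbb-bh1*. The mean BAF was 0.692 ± 0.0618 for *Hbb-bh1* (SD, n = 26), 0.526 ± 0.0211 for *Hbb-y* (n = 64), 0.533 ± 0.0347 for *Hbb-b2* (n = 64) and 0.320 ± 0.0867 for *Beta-s* (n = 64). B6 had more votes at *Hbb-bh1* in 26 of 26 embryos, at *Hbb-y* in 58 of 64 and at *Hbb-b2* in 56 of 64, and Cast had more at *Beta-s* in 64 of 64. Each departed from equal votes in a permutation test that flipped signs (p = 1e-05, the smallest possible, adjusted over the 4 entries). Litter means and either mother alone left each departure past the threshold.

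Set beside the F1 embryos, *Beta-s*, *Hbb-bh1* and *Hbb-y* leaned the same way, and *Hbb-b2* did not. In the 8 F1 embryos with 46 to 50 somites the BAF of *Hbb-b2* ranged from 0.281 to 0.392, with 69.6 to 92.6 votes per 100 reads. In the 29 N2 heterozygotes with the same somite numbers it ranged from 0.488 to 0.615, with 56.5 to 97.9 votes per 100 reads, and the ranges did not overlap. In the same embryos *Beta-s* had a mean of 0.337 ± 0.0460 in F1 and 0.296 ± 0.0661 in N2, *Hbb-y* 0.514 ± 0.00947 and 0.523 ± 0.0224, and *Hbb-bh1* 0.663 ± 0.0575 (n = 8) and 0.694 ± 0.0495 (n = 10, those with 20 votes). F1 and N2 differed in read length, which was longer in N2, and in sequencing runs, and the part of either in the *Hbb-b2* values was not tested.

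**Figure D3:**
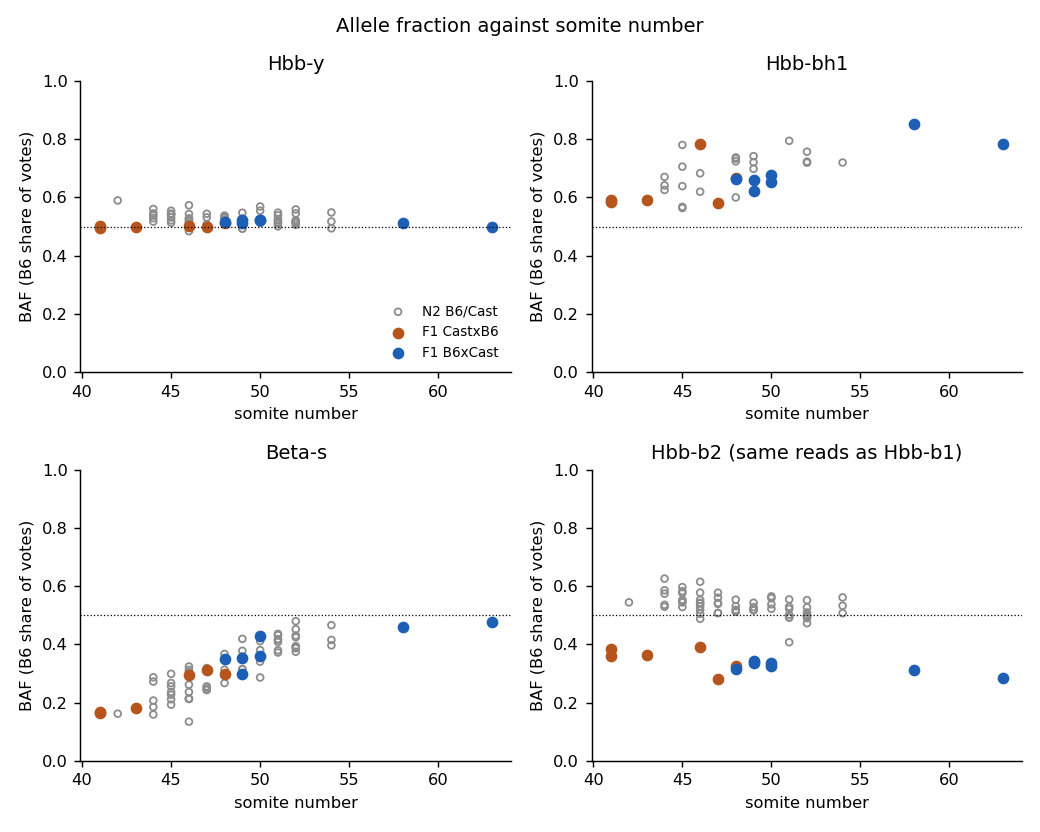
B6 allele fraction of each entry against somite number in heterozygous N2 embryos with at least 20 votes (open grey) and F1 embryos with a recorded somite number (orange, CastxB6; blue, B6xCast); the dotted line marks equal votes. *Beta-s* rose toward equality in both generations, *Hbb-y* stayed near it, and *Hbb-b2* lay at 0.281 to 0.392 in the F1 embryos plotted but mostly above 0.5 in N2.

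With somite number, 0.297% of the 3370 genes tested changed in BAF at a q under 0.1, 10 genes in all, with *Hbb-b1* and *Hbb-b2* each counted. Both adult entries were among them, in opposite directions. The embryonic entries were not among them. The BAF of *Hbb-bh1* had a Spearman's rho of 0.538 with somite number over 23 embryos and a Pearson's r of 0.555 (permutation p = 0.00900 and 0.00641, q = 0.402 over all genes), with r = 0.569 when the farthest 2 were left out. Split by mother, rho was 0.322 for B6 (n = 13) and 0.0803 for F1 (n = 10), and it was 0.270 centred within lane. *Hbb-y* gave rho = -0.214 over 60 embryos, with r = -0.226 (permutation p = 0.10 and 0.0824, q = 0.665), with r = -0.0894 when the farthest 2 were left out. Split by mother, its rho was -0.551 for B6 (q = 0.0418) and 0.0531 for F1, and it was 0.139 centred within lane. For *Hbb-b2*, centring within lane gave a rho of -0.433 and a q of 0.110, which did not pass.

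The ratio of *Beta-s* to *Hbb-b2* votes was then taken within each chromosome of the 60 heterozygous N2 embryos with a somite number. On the B6 chromosome it ranged from 0.134 to 1.03 over embryos. It rose with somite number, with rho = 0.826 and r = 0.818 (permutation p = 1e-05, the smallest possible, adjusted 1.50e-05 over 3 ratios) and r = 0.802 without the farthest 2. On the Cast chromosome it averaged 1.01 ± 0.236 (SD, n = 60) and ranged from 0.534 to 1.67, with rho = 0.196 and r = 0.148 (permutation p = 0.132 and 0.262) and r = 0.104 without the farthest 2. Centred within lane, the values of rho were 0.699 on the B6 and 0.294 on the Cast chromosome (permutation p = 0.0229 for the latter). By mother, B6 first, rho was 0.791 and 0.812 on the B6 and 0.145 and 0.364 on the Cast chromosome.

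The 87 embryos with B6 chromosomes alone had a like course, with a ratio of 0.515 ± 0.264 that ranged from 0.0726 to 1.12 and rose with somite number (rho = 0.669, r = 0.691, permutation p = 1e-05, and r = 0.660 without the farthest 2). In the heterozygotes the log2 of votes, scaled as for RPM, rose per somite by 0.45 for the B6 allele of *Beta-s* (SE 0.04) and by 0.28 for its Cast allele (SE 0.04), against 0.23 (SE 0.04) and 0.26 (SE 0.04) for the alleles of *Hbb-b2*. Votes per read differ between the entries and the strains, so a ratio of 1 does not stand for equal transcripts, and the course is read within a chromosome.

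In F1 embryos the same ratio on the B6 chromosome was 0.176, 0.448, 0.454 and 0.470 in litter 1, 0.432 to 1.08 in litter 2, 0.546 to 1.31 in litter 5 and 1.89 to 2.42 in litter 3. Litter 1 embryo 1-1 stood under the others of its litter. On the Cast chromosome it was 1.04 to 1.38, 0.670 to 1.01, 0.663 to 0.892 and 1.01 to 1.05 in the same order. The Cast ratio thus ranged from 0.663 to 1.38 over all 16 embryos, with litter 1 wholly above litter 2 and litter 3 wholly above litter 5. On the B6 chromosome litter 3 lay above each of the other embryos.

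**Figure D4:**
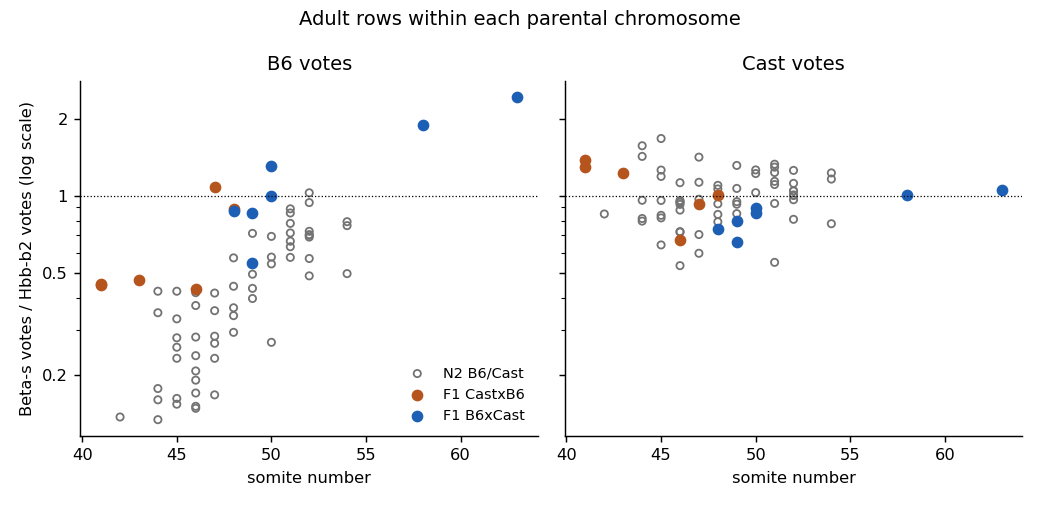
Ratio of *Beta-s* to *Hbb-b2* votes (log axis) on the B6 (left) and the Cast chromosome (right) against somite number in N2 B6/Cast embryos (open grey) and F1 embryos with a recorded somite number (orange, CastxB6; blue, B6xCast); the dotted line marks a ratio of 1. In N2 the B6 ratio ranged from 0.134 to 1.03 over embryos and rose with somite number (rho = 0.826). The Cast ratio ranged from 0.534 to 1.67 (rho = 0.196, or 0.294 centred within lane).

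N2 embryos that carried a Cast chromosome at the locus had more *Beta-s* and less *Hbb-bh1* than B6/B6 embryos. With lane and somite number in the model, *Beta-s* was 1.84-fold higher (log2 difference 0.88, SE 0.17, edgeR adjusted p = 2.81e-04) and *Hbb-bh1* 1.46-fold lower (log2 difference -0.54, SE 0.12, adjusted p = 0.00831), where 0.319% of genes were called. *Hbb-y* (0.08) and *Hbb-b2* (0.06) did not pass, both with an adjusted p over 0.99, nor did any alpha-globin. Within B6 mothers the differences were 0.69 and -0.58 (both adjusted p = 0.315) and within F1 mothers 1.05 (adjusted p = 0.0223) and -0.50 (adjusted p = 0.877). The ratio of *Beta-s* to *Hbb-b2* reads was 1.35 ± 0.357 in B6/Cast (SD, n = 64) and 0.835 ± 0.390 in B6/B6 embryos (n = 90), a description with no test. None of the 26 erythroid genes, 18 regulators or other listed markers tested was called in this comparison.

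An F1 mother carries a Cast allele that a B6/B6 embryo lacks, so the Cast votes of such embryos were compared by mother. They made up 0.474% ± 0.243 at *Hbb-y* with F1 mothers (SD, n = 40) and 0.389% ± 0.339 with B6 mothers (n = 50). At *Hbb-b2* they made up 0.135% ± 0.106 and 0.153% ± 0.172, and at *Beta-s* 0.490% ± 0.813 and 0.251% ± 0.423. The difference by mother did not pass for any entry (permutation test, adjusted p = 0.379, 0.747 and 0.280 in this order). At *Hbb-bh1* many embryos had few votes, with a median of 20, and the means of 1.13% (n = 39) and 0.934% (n = 40) had an adjusted p of 0.911.

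The genes whose lane-centred log2(RPM + 1) followed each entry most closely over 154 N2 embryos were ranked among 10007 genes. For *Hbb-y* they were *Alas2* (rho = 0.773), *Pdzk1ip1* (0.717) and *Ncf4* (0.608), of which *Alas2* had a rho of -0.0559 over the 16 F1 embryos. For *Hbb-bh1* they were *Pdzk1ip1* (0.484), *Ranbp1* (0.472) and *Crabp1* (0.466), with 0.050, 0.800 and 0.903 in F1. For *Hbb-b2* they were *Blvrb* (0.834), which encodes biliverdin reductase B, *Tspo2* (0.770) and *Slc4a1* (0.763), and for *Beta-s* *Tspo2* (0.751), *Cryga* (0.723) and *Tuba4a* (0.723). In F1 embryos these 6 pairs had values of 0.832 to 0.974. Among the globins, *Beta-s* and *Hbb-b2* had a rho of 0.835 in N2, *Hbb-y* and *Hba-x* 0.705, *Hbb-bh1* and *Hba-x* 0.692, and *Hbb-bh1* and *Hbb-y* 0.459, with 0.976, 0.850, 0.779 and 0.571 in F1. The pairs of an embryonic with an adult gene differed more between generations. With *Hbb-b2* and *Beta-s*, *Hbb-y* had 0.515 and 0.277 in N2 but -0.412 and -0.456 in F1. *Hbb-bh1* had -0.0874 and -0.392 in N2 and -0.935 and -0.912 in F1. *Hba-x* had 0.0715 and -0.215 in N2 and -0.706 and -0.776 in F1. The embryos share lanes, litters and stage, so these values describe likeness across embryos, with no test.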

How the data were processed

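Single whole E11.5 embryos were profiled by 3SEQ. Per the methods of the study, the authors trimmed poly(A) and, for the F1 embryos, cut the HiSeq reads to 76 bases. Reads were mapped with Bowtie2 (version not given in the sources used here) to mm9 and to a Cast genome built from published SNPs, and reads with a second-best alignment within 3 edits were discarded. The deposited expression tables hold counts of reads on each gene, with no normalization. The deposited vote tables hold estimated counts for each allele, made by the authors from SNPs at least 50 bases from an indel. The authors called N2 genotypes with a hidden Markov model. Of 168 N2 columns, 8 were used in no comparison because the labels name no mother, litter or embryo for them.

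Counts were divided by all reads on genes (RPM). Library totals were 15703888 to 38234229 reads in F1 and 245220 to 5370322 in N2, so single N2 embryos are less precise. Levels were tested on all genes with edgeR 4.0.16 (quasi-likelihood, TMM), in F1 with a term for each litter and in N2 with lane and somite number, and F1 log2 vote ratios with limma 3.58.1 (pseudocount 0.5, at least 20 votes), with Benjamini-Hochberg adjustment and a threshold of 0.05 (0.1 for q of BAF against somite number). DESeq2 1.42.0 was an alternative. N2 embryos were treated as separate samples although they share litters and lanes. Permutation tests used 100000 resamples and were two-sided. Relations were recomputed within mother, flowcell and lane. Scripts for tests over all genes were tested on simulated data. The named genes were all 5 beta-globin entries, every measured alpha globin, up to 3 members with the smallest p of each gene list, and for each entry the 3 genes of highest rank correlation among genes of at least 5 RPM. Members and lists were chosen with earlier results of these data known. The ratio of adult genes within a chromosome and its alternatives were chosen after seeing the data. The replicates are separate embryos of a litter, so F1 p-values measure the spread between embryos within these litters.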

Additional observations from a re-analysis of the deposited data

Results flagged for a closer look

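In 57 checks for a single embryo far from the rest of its F1 litter, 4 values passed Dixon's critical value, and chance alone passes about 1 in 20 groups. Litter 1 embryo 1-1 had a summed beta-globin level of 84552 RPM, against 64066 to 67318 in the other 3 embryos, and a summed alpha-globin level of 49171 RPM, against 34429 to 35262. Its ratio of *Beta-s* to *Hbb-b2* votes on the B6 chromosome was 0.176, against 0.448 to 0.470. Litter 2 embryo 2-2 had a *Beta-s* share of beta-globin reads of 3.07%, against 4.69% to 4.92%.

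In N2 the slopes with somite number differed between embryos of B6 and of F1 mothers in 5 of 10 permutation tests of the mother labels (20000 resamples, adjusted over the 10). The log2 RPM slope of *Hbb-bh1* differed by 0.19 per somite (-0.11 with B6 and -0.29 with F1 mothers, adjusted p = 0.00133) and that of *Hbb-y* by 0.20 (0.06 and -0.14, adjusted p = 2.50e-04). The slope of *Hbb-b2* differed by 0.22 (0.26 and 0.04, adjusted p = 2.50e-04) and that of *Beta-s* by 0.18 (0.37 and 0.18, adjusted p = 0.00400). The log2 ratio of beta-globin to alpha-globin reads differed by 0.11 (0.15 and 0.05, adjusted p = 0.00137). The adult share of beta-globin reads rose by 1.67 and 1.61 percentage points per somite, a difference that did not pass (adjusted p = 0.954), nor did those of the 4 allele fractions. Lane was not a term in these tests, and mother and lane cannot be told apart. Mother labels were permuted over single embryos, although all embryos of a litter have the same mother. The p-values therefore do not measure the spread between litters and may be too small. Neither level nor somite number was centred by mother first, so a difference in level between mothers can enter these tests.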

How the results depend on the processing

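Votes limit *Hbb-bh1* most: 26 of 64 heterozygous N2 embryos had 20 or more there, with a median of 1.73 votes per 100 reads in those 26 against 48.8 for *Beta-s* over the 64, although it had more reads. Over all values and alternatives, 983 kept direction and side of the threshold or moved within the limit, 52 moved further, 30 lost and 15 gained a call, and 16 reversed. The cause was not tested unless fewer embryos were used.

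With 1 F1 embryo left out, genes called by level ran from 998 to 2858 (litter 3 against 5), 3083 to 4964 (2 against 1) and 855 to 2363 (5 against 2, with 0 to 2 beta-globin entries). DESeq2 called 2 entries in the last. By allele balance, 0 to 1 entries and 0 to 1 genes were called between litters 3 and 5, 1 to 2 entries and 66 to 134 genes between 2 and 1, and 0 to 1 entries and 76 to 136 genes between 5 and 2. None of the log2 vote-ratio differences that reversed had been called: *Hbb-y* between 2 and 1 (-0.0164 to 0.0284; -0.00125 in one fit), and between 5 and 2 *Hbb-bh1* (-0.368 to 0.0909) and *Hbb-b2* (-0.0696 to 0.172; -0.000397 in one fit).

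Genes called against N2 somite number were 2454 without lane, 4173 with flowcell in its place, 557 with B6 mothers, 124 with F1 mothers (0 entries), 2200 by Spearman's correlation and 127 over litter means. The slope of *Hbb-y* was 0.00673 with flowcell, 0.0237 with B6 mothers and 0.00786 over litter means. Between heterozygous and B6/B6 embryos 1 entry was called without lane, 0 entries and 16 genes with B6 mothers and 1 entry and 11 genes with F1 mothers, and the difference of *Hbb-b2* was -0.00551 without lane and -0.110 with B6 mothers. The rho of the beta-globin total with somite number was 0.426 (B6 mothers), -0.495 (F1 mothers), -0.205 (flowcell 1) and 0.280 (flowcell 2), and that of the beta to alpha ratio 0.237 (F1 mothers) and 0.196 (flowcell 1). For the *Hba-x* share it was -0.158 (F1 mothers) and -0.250 (flowcell 1), and for the *Beta-s* to *Hbb-b2* ratio 0.236 (flowcell 1). With the alpha total, flowcell 1 gave 0.112 for the *Hba-x* share and -0.249 for the *Beta-s* to *Hbb-b2* ratio.

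BAF changed with somite number in 5 genes at 50 votes, 16 at 10 votes, 3 centred within lane (1 entry), 63 with B6 and 2 with F1 mothers (1 entry), and the rho of *Hbb-y* was 0.139 centred within lane and 0.0531 with F1 mothers. With flowcell 2 only, the log2 vote ratio of *Hbb-bh1* was 1.40 (n = 4, permutation p = 0.125, the smallest that 4 embryos allow, so this setting could not pass). The difference in Cast votes at *Hbb-bh1* was -0.0810 points at 100 votes and -0.788 over litter means. The Cast adult ratio passed when centred within lane (rho = 0.294, permutation adjusted p = 0.0229), an alternative chosen after seeing the data.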
